A study of Oryza sativa with 8 samples.

Results

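The genes described here are 10 rice loci of nitrogen assimilation, out of 55797 loci with values in every library. They were taken by identifier from a fixed list that pairs each locus with an enzyme: 2 nitrate reductases (LOC_Os08g36480 and LOC_Os08g36500), nitrite reductase (LOC_Os01g25484), the glutamine synthetases GS1;1 (LOC_Os02g50240), GS1;2 (LOC_Os03g12290) and GS2 (LOC_Os04g56400), the glutamate synthases NADH-GOGAT1 (LOC_Os01g48960) and Fd-GOGAT (LOC_Os07g46460), an asparagine synthetase (LOC_Os03g18130) and the glutamate dehydrogenase GDH2 (LOC_Os04g45970). The deposited tables give identifiers only, so the enzyme names rest on that list. RNA was sequenced from leaf and root of Oryza sativa cultivar Nipponbare, grown hydroponically for 2 weeks in a greenhouse. Control seedlings stayed in normal medium and the others received 150 mmol NaCl, an amount the labels give without a volume, for 24 hours. The 4 groups (leaf control, leaf salt, root control, root salt) hold 2 libraries each. The plants carry no engineered allele in the labels, and how many seedlings went into a library is not stated there. Grouping follows the library titles, because the tissue field reads seedling for leaf and shoot for root libraries.

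Plants take up nitrate and reduce it in the cytosol to nitrite with nitrate reductase, then in plastids to ammonium with nitrite reductase. Glutamine synthetase fixes ammonium onto glutamate, and glutamate synthase (GOGAT) moves the amide nitrogen onto 2-oxoglutarate to regenerate glutamate. In leaves, the plastid enzymes GS2 and ferredoxin-dependent Fd-GOGAT also recapture the ammonium released by photorespiration, whereas cytosolic GS1 forms and NADH-dependent GOGAT serve primary assimilation in roots and the recycling and transport of nitrogen. Asparagine synthetase makes asparagine, a nitrogen-rich transport and storage amide. Glutamate dehydrogenase interconverts glutamate and 2-oxoglutarate and is known mainly for glutamate breakdown.

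The deposited unit is FPKM, fragments scaled to transcript length and library size, which puts genes on a common scale. Comparisons between genes assume that fragments were assigned to each locus equally well, which was not tested. Implied fragments, calculated from the deposited confidence bounds, summed to between 9060000 and 10700000 per library. These sums are not read as sequencing depth, for the reason given with the processing. The tissue labels were checked with marker loci listed by identifier from general knowledge of rice, which no source used here annotates. The 8 leaf markers summed to between 33792 and 38887 FPKM in the leaf libraries. They summed to 393 FPKM in root control replicate 1 and to between 75.7 and 103 FPKM in the other 3 root libraries, and none was listed at 0 there. The 3 root markers summed to 2705 and 3115 FPKM in root controls, to 1533 and 1563 FPKM in salt-treated roots and to between 5.13 and 10.6 FPKM in leaf, where 1 of them was listed at 0 in each leaf control library. Root control replicate 1 thus held more leaf marker transcript than the other root libraries, with a median of 1.09% of the leaf control level against 0.206% to 0.322%. Whether that transcript came from leaf tissue was not tested.

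All 10 genes had FPKM above 0 in every library and passed the filter, which asked for 1 FPKM or more in at least 2 libraries. A difference was called where the adjusted p of limma was under 0.05 over the 23776 genes tested. Differences are on the log2(FPKM + 1) scale, which understates the change of low genes. Salt changed 4 of the 10 genes in leaf, 2 upwards and 2 downwards, where 33.8% of all tested genes were called (14.8% upwards and 18.9% downwards). In root it changed 6 of the 10, 4 upwards and 2 downwards, where 43.4% of all tested genes were called (29.1% upwards and 14.4% downwards). The shares of the 10 genes were thus 40% in leaf and 60% in root, and with so few genes neither is read as set apart from the background. The median change of the 10 genes was -0.07 in leaf, against -0.05 over all tested genes, and 0.26 in root, against 0.13. The root markers moved with salt as well: their median in salt-treated roots was 51.4% and 51.6% of the root control level, with single markers at 35.4% to 118%, and their part in the root changes was not tested.

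**Figure D1:**
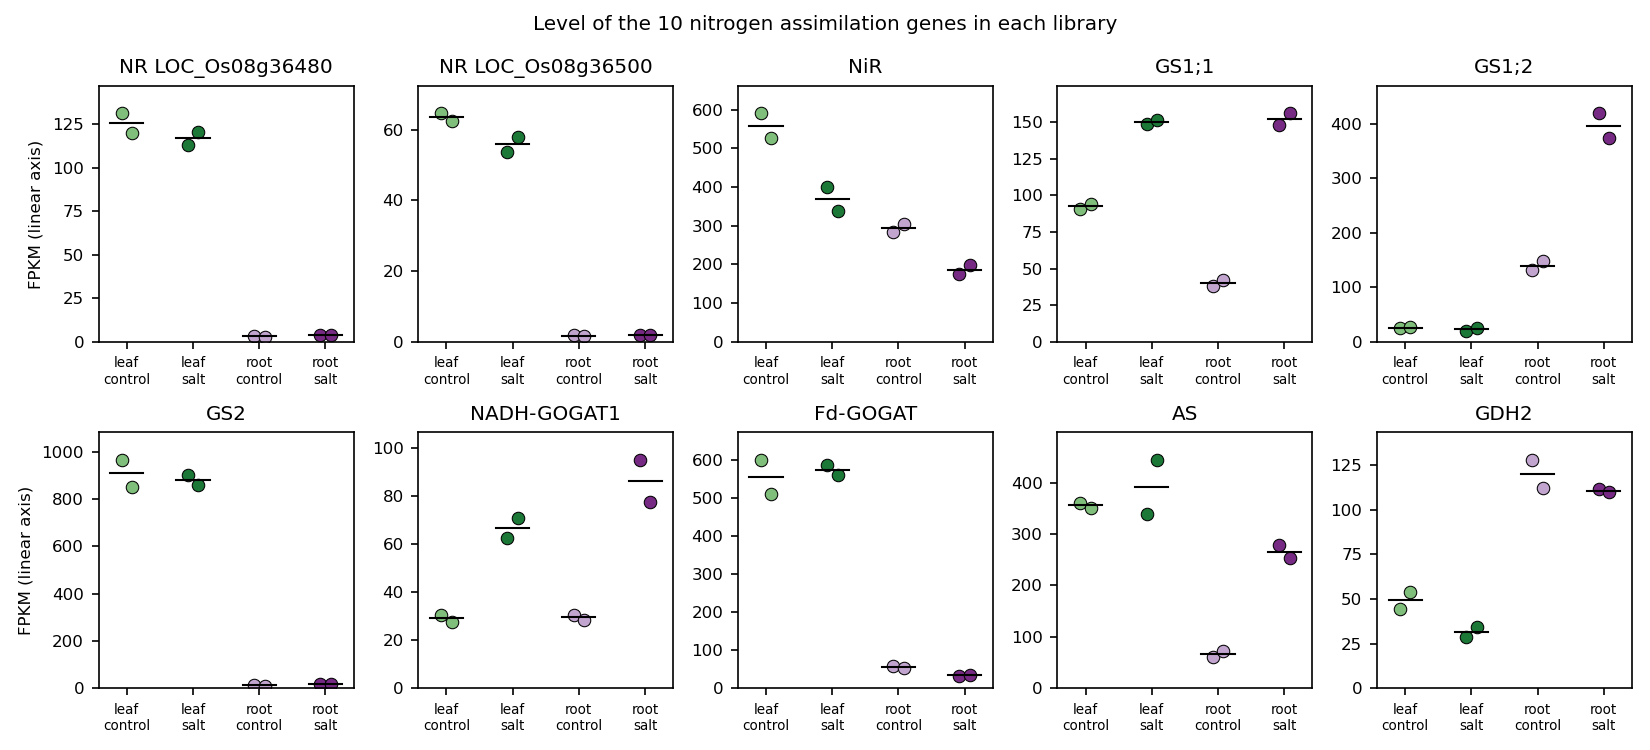
FPKM of each gene (linear vertical axes that start at 0 and differ between panels) in the 8 libraries. Points are libraries and horizontal lines are the means of 2. NR is nitrate reductase, NiR nitrite reductase and AS asparagine synthetase. In root, GS1;1, GS1;2, NADH-GOGAT1 and AS rose with salt, while nitrite reductase and Fd-GOGAT fell.

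**Figure D2:**
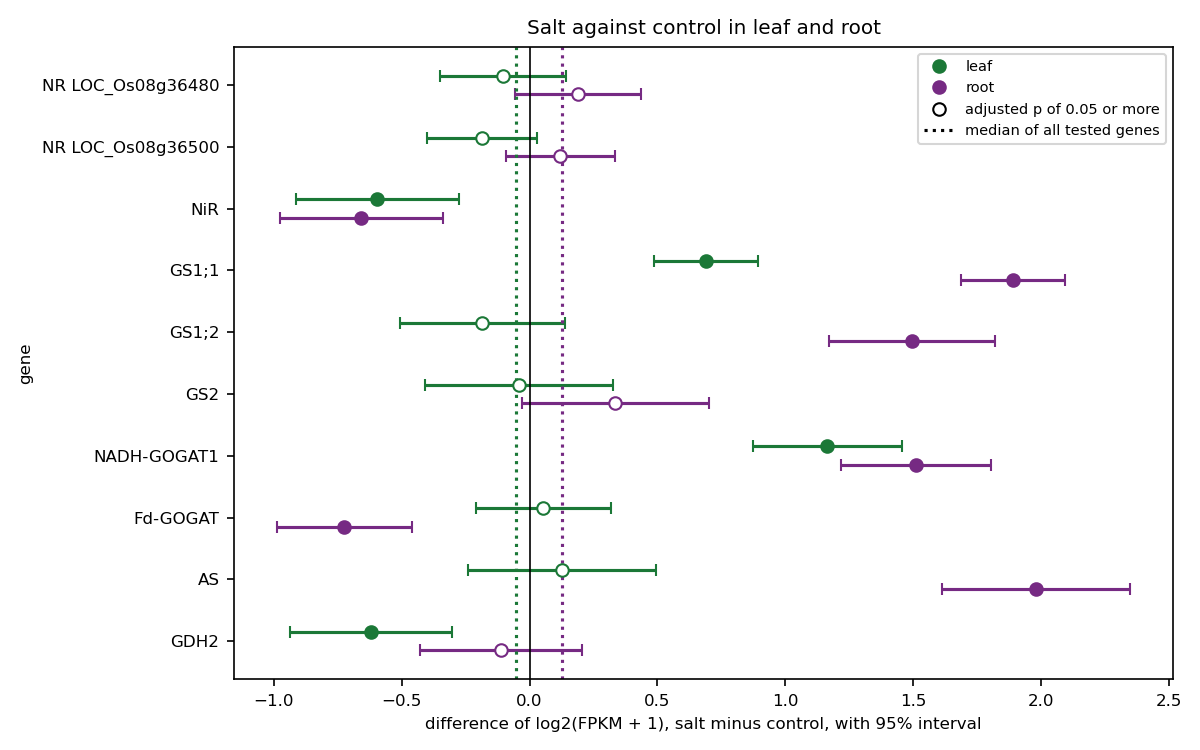
Salt minus control on the log2(FPKM + 1) scale for each gene in leaf (green) and root (purple), with 95% intervals from limma. Filled points have an adjusted p under 0.05, and dotted lines mark the medians of all tested genes, -0.05 in leaf and 0.13 in root.

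The genes of nitrate reduction split into nitrate reductases that were far higher in leaf and for which no salt change was called, and a nitrite reductase that was high in both tissues and fell with salt in both. The nitrate reductases, which catalyse the first step, lie on chromosome 8 at 23033230 to 23038596 and at 23051421 to 23055575, 12.82 kb apart. LOC_Os08g36480 had 131 and 120.3 FPKM in leaf controls, 113 and 121 in salt-treated leaves, 3.58 and 2.98 in root controls and 4.04 and 3.69 in salt-treated roots. LOC_Os08g36500 had 64.6 and 62.6 FPKM in leaf controls, 53.8 and 57.8 in salt-treated leaves, 1.79 and 1.62 in root controls and 1.98 and 1.89 in salt-treated roots. Both loci were thus high in all 4 leaf libraries and low in all 4 root libraries, with a leaf mean 38.4 and 37.3 times the root mean in controls. In tissue samples, fewer cells with a transcript and less transcript per cell cannot be told apart.

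No salt change of either nitrate reductase was called. For LOC_Os08g36480 the difference was -0.10 in leaf (95% interval -0.35 to 0.14, limma adjusted p = 0.499) and 0.19 in root (-0.06 to 0.43, adjusted p = 0.190). For LOC_Os08g36500 it was -0.19 in leaf (-0.40 to 0.03, adjusted p = 0.162) and 0.12 in root (-0.09 to 0.33, adjusted p = 0.327). The root differences of both loci were below 0 after quantile normalization. The ratio of LOC_Os08g36480 to LOC_Os08g36500 lay between 1.84 and 2.10 in all 8 libraries, while the leaf mean of each was between 28.8 and 38.4 times its root mean. How fragments shared by similar copies were assigned is not given in the sources used here, so the separate values of these neighbours are uncertain.

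Nitrite reductase (chromosome 1, 14446910 to 14453474), which turns nitrite into ammonium in plastids, had 590.0 and 526 FPKM in leaf controls and 401 and 339 with salt. In root it had 284 and 303 FPKM without salt and 174 and 198 with it. Salt libraries were below control libraries in both tissues without overlap, and leaf salt was still above root control. The change was -0.60 ± 0.134 in leaf (SE, limma adjusted p = 0.0148) and -0.66 ± 0.134 in root (limma adjusted p = 0.00786), and the mean level fell to 66.3% and 63.3% of control. The difference between these changes was -0.06 (95% interval -0.52 to 0.39, limma adjusted p = 0.829). The leaf call was lost without leaf control replicate 1 (-0.51, limma adjusted p = 0.0777), without leaf salt replicate 2 (-0.47, limma adjusted p = 0.0880) and with only leaf libraries in the fit (limma adjusted p = 0.0521).

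The levels of the nitrate reductases and nitrite reductase were set apart in root. Nitrite reductase stood at 3.01 and 2.88 times the summed FPKM of these 2 nitrate reductases in leaf controls and at 52.9 and 66.1 times in root controls. With salt the ratio was 2.40 and 1.90 in leaf and 29.0 and 35.4 in root. With this sum, the ratio in each salt library was below that in both control libraries of its tissue. The sum itself was not lower in salt-treated roots, at 6.02 and 5.58 FPKM. The sum leaves out the further loci given below, listed as other copies of the same enzymes. Among them, LOC_Os02g53130 had 4.78 and 2.07 FPKM in root controls and 2.26 and 1.39 in salt-treated roots. The 2 summed loci had 5.37 and 4.59 FPKM in root controls. Ratios with that locus counted were not calculated. The fall of the ratio in root is thus given for this sum only, and the separation of salt from control may not hold with that locus counted.

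Among the glutamine synthetases, the cytosolic forms rose in salt-treated roots, and in leaf GS1;1 alone of the 3 was called. GS1;1 (chromosome 2, 30674776 to 30678659) had 38.2 and 42.4 FPKM in root controls and 148 and 156 with salt, and in leaf 90.7 and 94.4 without salt and 149 and 151 with it. All 4 salt libraries were above all 4 control libraries, and the salt levels of leaf and root overlapped. The mean level rose 3.77-fold in root and 1.62-fold in leaf, or by 1.89 ± 0.0855 (SE, limma adjusted p = 6.57e-05) and 0.69 ± 0.0855 (limma adjusted p = 0.00134).

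GS1;2 (chromosome 3, 6457910 to 6462727), whose fragments may be shared with the related GS1;1, was the root form by level. It had 131 and 149 FPKM in root controls, 419 and 373 in salt-treated roots, 25.7 and 26.6 in leaf controls and 20.2 and 26.0 in salt-treated leaves. Root libraries were above all leaf libraries, and salt-treated roots were above root controls. The mean rose 2.83-fold in root, by 1.496 ± 0.136 (SE, limma adjusted p = 0.000353), which raised its rank among all genes from 693 and 583 to 168 and 190. In leaf the libraries overlapped, with a difference of -0.18 (95% interval -0.51 to 0.14, limma adjusted p = 0.351).

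GS2 (chromosome 4, 33624332 to 33631095), the plastid form, was the most abundant of the 10 genes in leaf. It had 966 and 852 FPKM in leaf controls and 903 and 861 with salt, and its rank among all genes in leaf was between 70 and 79. The leaf libraries overlapped, with a difference of -0.04 (95% interval -0.41 to 0.32, limma adjusted p = 0.884). In root it had 15.7 and 11.2 FPKM without salt and 17.6 and 16.6 with it, a difference of 0.33 that was not called (-0.03 to 0.70, limma adjusted p = 0.124). Without root control replicate 1, the root library with the most leaf marker transcript, the root difference was larger, at 0.56. In that library the median leaf marker percentage, applied to the leaf level of GS2, corresponds to 9.94 FPKM, while in the other root libraries it corresponds to between 1.87 and 2.93 FPKM. The part of leaf transcript in the root values of GS2 was not tested.

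The share of each form in the summed FPKM of the 3 glutamine synthetases does not depend on scaling between libraries. GS2 made up 88.4% ± 1.19 in leaf controls and 83.6% ± 0.938 with salt (SD, n = 2). GS1;1 made up 9.04% ± 0.936 and 14.2% ± 0.500 in the same leaves. In root, GS1;2 made up 72.2% ± 1.90 without salt and 70.0% ± 2.34 with it, and the ranges of that share overlapped although the level rose. GS1;1 had 20.8% ± 0.189 and 26.9% ± 2.32, and GS2 had 7.04% ± 2.09 and 3.02% ± 0.0195. The summed level was 194 ± 12.5 FPKM in root controls and 565 ± 27.2 with salt, 2.92 times as high, and 1028 ± 77.3 and 1055 ± 23.3 FPKM in leaf. Shares were not tested and are given as a description.

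**Figure D3:**
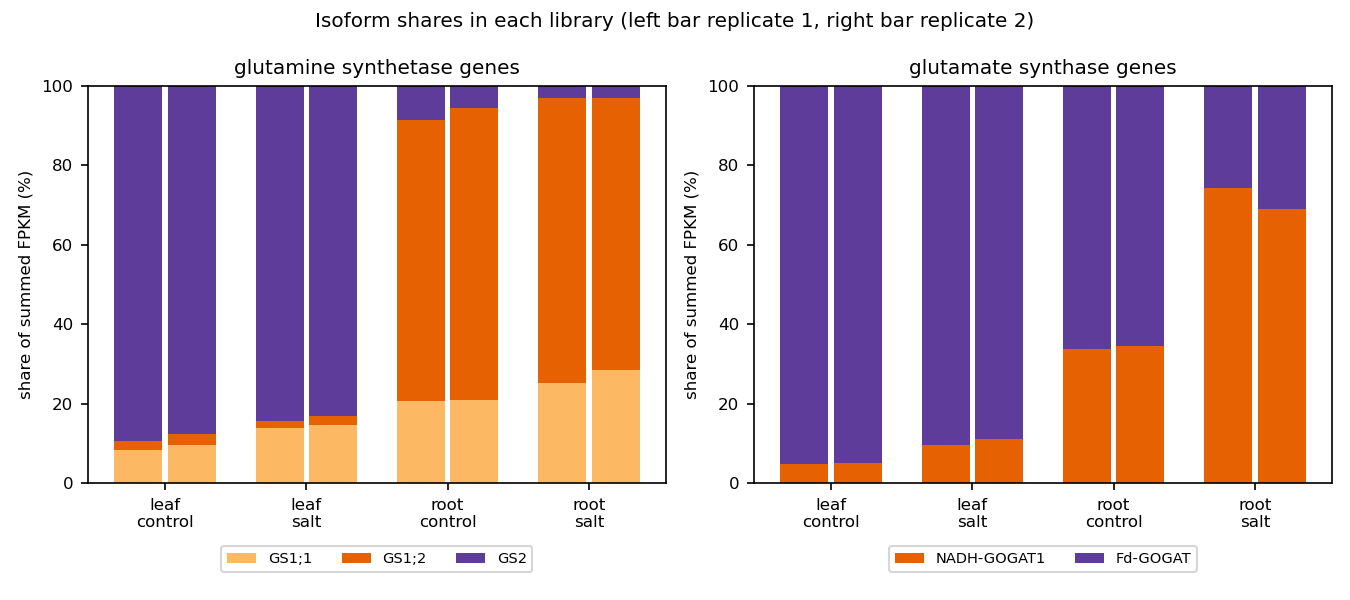
Share of each form in the summed FPKM (percent, stacked to 100) of the 3 glutamine synthetases and of the 2 glutamate synthases, with a bar for each library. NADH-GOGAT1 went from 33.8% and 34.6% in root controls to 74.3% and 69.0% in salt-treated roots.

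The glutamate synthases moved in opposite directions in root. NADH-GOGAT1 (chromosome 1, 28091208 to 28102930) had 30.5 and 28.4 FPKM in root controls and 94.9 and 77.6 with salt, and in leaf 30.5 and 27.7 without salt and 62.4 and 70.8 with it. Control levels of leaf and root overlapped, and in each tissue both salt libraries were above every control library. The mean rose 2.93-fold in root, by 1.51 ± 0.123 (SE, limma adjusted p = 0.000249), and 2.29-fold in leaf, by 1.16 ± 0.123 (limma adjusted p = 0.000708). The difference between the changes was 0.35 (95% interval -0.07 to 0.76, limma adjusted p = 0.173), which was not called.

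Fd-GOGAT (chromosome 7, 27723015 to 27738539), which draws electrons from ferredoxin, had 59.7 and 53.8 FPKM in root controls and 32.9 and 34.9 with salt. In leaf it had 599 and 510 FPKM without salt and 587 and 561 with it. Root salt was below root control without overlap, while the salt-treated leaves lay within the range of the leaf controls. The root level fell to 59.8% of control, by 0.72 ± 0.111 on the log2 scale (SE, limma adjusted p = 0.00255). The leaf difference was 0.05 (95% interval -0.21 to 0.32, limma adjusted p = 0.771). The leaf marker percentages correspond to 6.06 FPKM of Fd-GOGAT in root control replicate 1 and to between 1.14 and 1.79 in the other root libraries. With any library left out, root control replicate 1 included, the root difference lay between -0.80 and -0.65. The part of leaf transcript in the root values of Fd-GOGAT was not tested.

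Of the summed FPKM of the 2 glutamate synthases among the 10 genes, NADH-GOGAT1 made up 34.2% ± 0.499 in root controls and 71.6% ± 3.74 with salt (SD, n = 2). In leaf it made up 5.0% ± 0.218 and 10.4% ± 1.13. The sum was 86.2 ± 5.66 and 120.2 ± 10.8 FPKM in root and 584 ± 65.0 and 640.4 ± 12.8 in leaf. Of these 2 forms, the more abundant in root was thus Fd-GOGAT without salt and NADH-GOGAT1 with it, and in leaf Fd-GOGAT throughout. The sums leave out the further loci given below, listed as other copies of the same enzymes. Among them, LOC_Os05g48200 had 51.5 and 49.5 FPKM in leaf controls, above NADH-GOGAT1, and 2.44 and 3.31 with salt. Shares with that locus counted were not calculated, so the leaf shares describe these 2 genes only.

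Asparagine synthetase (chromosome 3, 10119873 to 10124384), which transfers the amide of glutamine to aspartate, had the largest estimated rise in root of the 10 genes, a little above that of GS1;1, from which it was not tested. It had 60.9 and 72.2 FPKM in root controls and 278 and 253 with salt, and in leaf 360.0 and 351 without salt and 339 and 444 with it. Salt-treated roots were above root controls and below all leaf libraries, and the leaf groups overlapped. The mean rose 3.98-fold in root, by 1.98 ± 0.155 (SE, limma adjusted p = 0.000221), and only 3.15% of all tested genes had a larger change in either direction. The leaf difference was 0.13 (95% interval -0.24 to 0.49, limma adjusted p = 0.589), and it was -0.07 without leaf salt replicate 2, the highest leaf library. The locus overlaps LOC_Os03g18120 over 1052 bases, and that locus had at most 1.19 FPKM in any library.

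GDH2 (chromosome 4, 27233360 to 27238105), a glutamate dehydrogenase, was higher in root than in leaf and fell in salt-treated leaves. It had 44.5 and 54.2 FPKM in leaf controls and 28.9 and 34.6 with salt, and in root 128 and 112 without salt and 111 and 109.9 with it. Leaf salt was below leaf control without overlap, and all root libraries were above all leaf libraries. The leaf level fell to 64.3% of control, by 0.62 ± 0.133 on the log2 scale (SE, limma adjusted p = 0.0123). The root difference was -0.11 (95% interval -0.43 to 0.20, limma adjusted p = 0.541). The leaf call was lost without leaf control replicate 2 (-0.48, limma adjusted p = 0.0681), without leaf salt replicate 1 (-0.49, limma adjusted p = 0.0745) and with only leaf libraries in the fit (limma adjusted p = 0.0598).

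By the interaction term of the model, 4 of the 10 genes had a salt change that was unequal in root and leaf, 3 with the more positive change in root, where 32.8% of all tested genes were called (23.1% with the more positive change in root and 9.71% with the more negative). The root change exceeded the leaf change for asparagine synthetase by 1.86 ± 0.219 (SE, limma adjusted p = 0.00174), for GS1;2 by 1.68 ± 0.193 (limma adjusted p = 0.00160) and for GS1;1 by 1.20 ± 0.121 (limma adjusted p = 0.00109). For Fd-GOGAT it was more negative in root, by -0.78 ± 0.157 (limma adjusted p = 0.0110). These 4 calls were kept under every alternative and with any library left out. The interval of GDH2 ran from 0.06 to 0.96 with an adjusted p of 0.0821 in limma, which missed the threshold. Scaling to the 75th percentile moved the median root change of all genes from 0.13 to 0 and that of the interaction from 0.19 to 0.03, and the directions of the called genes in root and in the interaction were the same after it.

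Without salt, 9 of the 10 genes differed between root and leaf, 2 higher in root and 7 higher in leaf, where 67.4% of all tested genes were called (39.1% higher in root and 28.3% higher in leaf). GS2 stood furthest apart, at -5.99 ± 0.154 for root minus leaf (SE, limma adjusted p = 3.53e-07) and a leaf mean 67.4 times the root mean. GS1;2 was 5.35 times and GDH2 2.43 times as high in root. Asparagine synthetase was 5.34 times and Fd-GOGAT 9.78 times as high in leaf. NADH-GOGAT1 had a difference of 0.02 (95% interval -0.28 to 0.31, limma adjusted p = 0.909).

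Under salt, 9 of the 10 genes again differed, 3 higher in root and 6 in leaf, where 72.2% of all tested genes were called (47.7% higher in root and 24.5% higher in leaf). GS1;2 was 17.2 times as high in root, at a difference of 4.05 ± 0.136 (SE, limma adjusted p = 8.26e-07). Fd-GOGAT was 16.9 times as high in leaf. Asparagine synthetase was 1.48 times as high in leaf, by a difference of -0.55 (limma adjusted p = 0.0157) that was not called without leaf salt replicate 2 (-0.35, limma adjusted p = 0.0833) or root salt replicate 2 (-0.48, limma adjusted p = 0.0795). GS1;1, which was 2.30 times as high in leaf without salt, had a difference of 0.02 with it (95% interval -0.19 to 0.22, limma adjusted p = 0.861), and this was -0.19 after scaling to the 75th percentile. NADH-GOGAT1 was called higher in root by 0.36 (limma adjusted p = 0.0319), and the call was lost after that scaling (0.16, limma adjusted p = 0.279), without leaf salt replicate 1 (0.27, limma adjusted p = 0.162) and without root salt replicate 1 (0.22, limma adjusted p = 0.159).

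**Figure D4:**
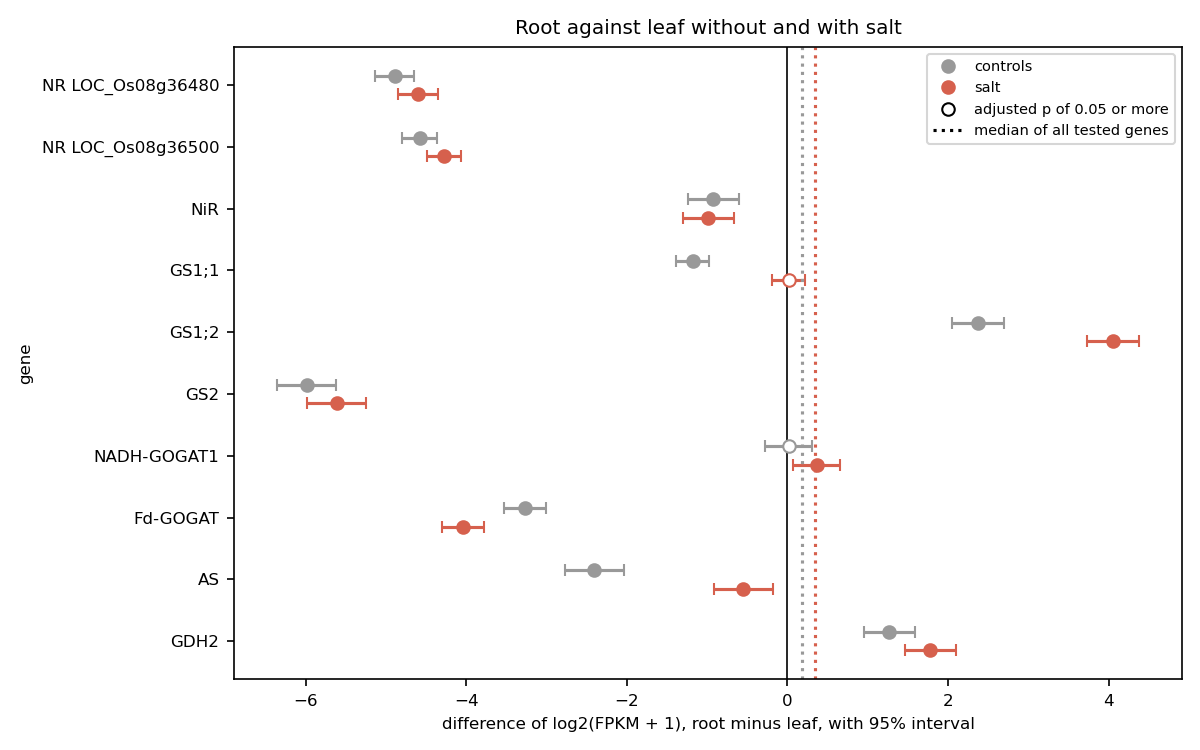
Root minus leaf on the log2(FPKM + 1) scale in controls (grey) and under salt (red), with 95% intervals from limma. Open points have an adjusted p of 0.05 or more. GS1;1 moved from below 0 to 0.02 and asparagine synthetase from -2.40 to -0.55.

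**Figure D5:**
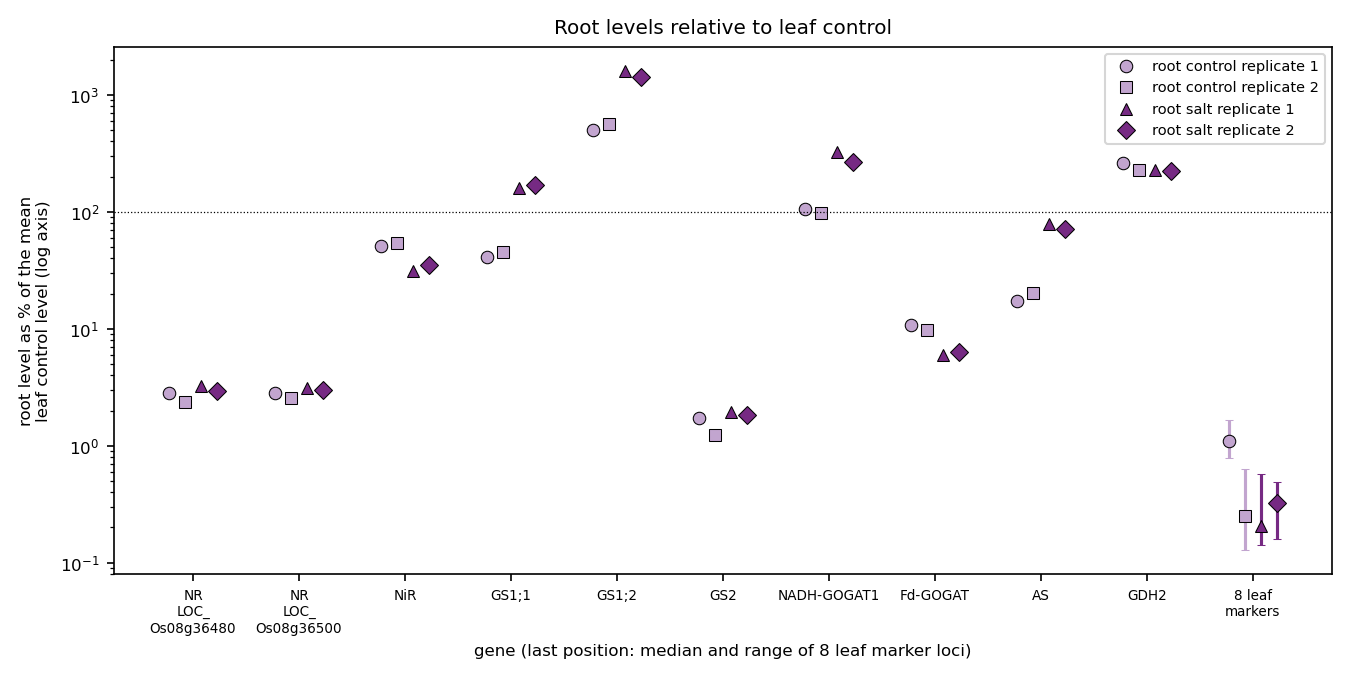
Level in each root library as a percentage of the mean leaf control level (log axis), for the 10 genes and, at the right, the median and range of the 8 leaf markers. GS2 and the nitrate reductases were at 1.24% to 3.21%, above the leaf marker median of every root library, and the other genes were at 5.93% or more.

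The root levels of the nitrate reductases were also low enough to be set beside the leaf markers. LOC_Os08g36480 stood at 2.37% to 3.21% of its leaf control level in the 4 root libraries, and LOC_Os08g36500 at 2.54% to 3.12%. The leaf marker median was 1.09% in root control replicate 1 and at most 0.322% in the others. The part of leaf transcript in these root values was not tested.

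A further 8 loci had been listed by identifier, from general knowledge of rice, as other copies of the same enzymes. No source used here annotates them, so no enzyme name is given to any of them. Of the 8, 6 passed the filter. By limma at an adjusted p under 0.05, 1 of the 6 rose and 2 fell in leaf, where 33.8% of all tested genes were called. In root 4 rose, where 43.4% of all tested genes were called and 29.1% rose, and the interaction was called for 3, against 32.8% of all tested genes. Nothing is read from these counts of 6 loci. LOC_Os05g48200 (chromosome 5, 27622654 to 27636451) had 51.5 and 49.5 FPKM in leaf controls and 2.44 and 3.31 in salt-treated leaves, and 0.402 and 0.226 FPKM in root controls and 1.37 and 0.755 with salt. The leaf mean fell 17.6-fold, by 3.74 ± 0.189 on the log2 scale (SE, limma adjusted p = 6.20e-05), and 0.193% of all tested genes had a larger change in leaf.

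LOC_Os03g58040 (chromosome 3, 33038041 to 33043335) fell in leaf from 28.6 and 26.2 to 10.03 and 10.5 FPKM and rose in root from 45.1 and 53.4 to 68.0 and 64.6 FPKM. The changes were -1.33 ± 0.103 (SE, limma adjusted p = 0.000220) and 0.43 ± 0.103 (limma adjusted p = 0.0157), and the difference between them was 1.76 ± 0.146 (limma adjusted p = 0.000651). LOC_Os03g50490 (chromosome 3, 28822405 to 28826521) rose in leaf from 1.17 and 1.03 to 3.84 and 4.87 FPKM. In root it was listed at 0 and 0.101 FPKM without salt and at 2.34 and 2.28 with it, and rose (limma adjusted p = 0.000311). LOC_Os06g15420 (chromosome 6, 8758769 to 8765753) rose in root from 16.8 and 16.2 to 22.4 and 26.6 FPKM, by 0.54 ± 0.0966 (SE, limma adjusted p = 0.00481). Of the 6 loci, 4 were called in root with all libraries. Fewer were called without any 1 of the control libraries of leaf or root, or without root salt replicate 1. In those fits fewer of all tested genes were called as well. With a pseudocount of 5, no filter on low values or a filter at 5 FPKM, 3 were called, and with a replicate block 5.

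Over the 8 libraries, profiles of the 10 genes were compared by Pearson's r of log2(FPKM + 1), as a description in which the points share tissue and treatment. Of the 45 pairs, 6 had an r over 0.9 and 21 an r under 0. The nitrate reductases were each the closest of all tested genes to the other (r = 0.9997). GS2 had LOC_Os08g36480 as its closest fellow gene, at rank 2 of 23775 genes. At least 2291 genes had an r over 0.9 with GS2, 2299 with LOC_Os08g36480 and 2327 with LOC_Os08g36500, so no particular tie is read from these ranks. The closest pair among genes that rose in root was GS1;1 and asparagine synthetase (r = 0.881), at rank 528 for GS1;1. Nitrite reductase was closest to Fd-GOGAT among the 10 (r = 0.872, rank 1460), and over all genes to LOC_Os02g17330 (r = 0.995) and LOC_Os02g07680 (r = 0.990). The first of these had 30.2 and 28.7 FPKM in leaf controls, 21.1 and 18.5 in salt-treated leaves, 15.5 and 16.9 in root controls and 8.25 and 10.2 in salt-treated roots.

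The deposited 95% bounds give a precision within each library. Their half-width was between 0.873% and 8.40% of the FPKM, except for GS2 and the nitrate reductases in root, where it reached 24.7%. The fewest implied fragments were 65.4, for LOC_Os08g36500 in root control replicate 2. These bounds describe single libraries, and the tests above rest on the spread between libraries.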

How the data were processed

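The values are FPKM per gene and library with lower and upper bounds, deposited by the authors and made, per the file headers, in the gene tracking format of Cufflinks. TopHat2 2.0.13, Cufflinks 2.2.1 and Cuffdiff are named, per the submitters' processing notes. The genome build, annotation and strandedness are not stated there. Coordinates are the deposited ones, printed 1-based.

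From these tables, 4 identifiers that stand at several loci were left out, and limma 3.58.1 (R 4.3.3) was run on log2(FPKM + 1). The model has 4 group means, a shared spread following the mean level, and Benjamini-Hochberg adjustment over the 23776 genes that reached 1 FPKM in at least 2 libraries. Tests are two-sided. The fit was also run on simulated data, for the salt comparison in leaf only, and nothing is concluded from that run here. Per the labels' protocols the libraries are biological replicates. Implied fragments are the square of (2 × FPKM / d), with d the distance to the upper bound. Bounds that hold more than counting error would make them too small. For GS2 they were 2163 at 966 FPKM in leaf control replicate 1 and 304 at 15.7 FPKM in root control replicate 1. They thus did not rise in proportion to FPKM and are not read as fragment counts.

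All 10 members are named. The members, lists and tests were chosen with earlier results of these data known. Likeness was ranked by Pearson's r over the 8 libraries. Alternatives were other pseudocounts, filters, scalings, variance priors and subsets of libraries, and a replicate block. The supplied RefSeq gene table holds none of the 29 listed identifiers, and no sequence was used.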

Additional observations from a re-analysis of the deposited data

Results flagged for a closer look

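In 4 of the 10 genes the response to salt was unequal in the organs, as called by limma's interaction term, where 32.8% of all tested genes were called. The root change minus the leaf change was 1.20 for GS1;1, 1.68 for GS1;2 and 1.86 for asparagine synthetase, and -0.78 for Fd-GOGAT, on the log2(FPKM + 1) scale. For GS1;1 salt was above control in both tissues, and for the other 3 genes a change was called in root and the leaf groups overlapped. Leaf marker transcripts were higher in root control replicate 1 than in the other root libraries, and without that library all 4 differences kept their direction. The part of leaf transcript in these differences was not tested.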

How the results depend on the processing

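Of 840 recalculated differences of the 10 genes, covering 50 results, 809 kept their direction and their side of the threshold, 14 kept the direction and lost the call, 2 gained a call and 15 changed sign. No result that was called in the main fit changed sign. With only the groups compared in the fit, 2 of the 10 genes were called in leaf, where 7144 of all tested genes were, and 2 of the further loci in root, where 7577 were. With a library left out, the calls among the 10 genes numbered 3 to 4 in leaf, 6 to 7 in root, 4 to 5 for the interaction, 9 for root against leaf in controls and 8 to 9 under salt. Calls among the further loci in root then numbered 2 to 4, and calls over all genes in leaf, 8027 in the full fit, 5185 to 7975, with 5330 without leaf control replicate 1, 5344 without leaf salt replicate 1 and 5185 without leaf salt replicate 2. Over all tested genes, each fit with a library left out also called fewer in root, for the interaction and under salt than the full fit. For root against leaf in controls, such fits called fewer or slightly more. Nothing is read from how steady the counts of the 10 genes were. The interaction could not be run on a subset of groups.

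Sign changes concerned differences near 0, and their cause was not tested. After quantile normalization the root changes of the nitrate reductases were -0.057 (LOC_Os08g36480) and -0.10 (LOC_Os08g36500), the leaf change of GS2 was 0.092, and root against leaf was -0.059 for GS1;1 under salt and -0.014 for NADH-GOGAT1 in controls. The 75th percentile gave -0.19 for GS1;1 under salt. NADH-GOGAT1 under salt was not called higher in root with no filter on low values (limma adjusted p = 0.0534), with only the groups compared (0.0646) or after quantile normalization (0.12). With a library left out, the range was -0.19 to 0.058 for the interaction of nitrite reductase, -0.021 to 0.057 for GS1;1 under salt, -0.13 to 0.049 for GS2 in leaf, -0.050 to 0.084 for NADH-GOGAT1 in controls, -0.063 to 0.17 for Fd-GOGAT in leaf and -0.068 to 0.32 for asparagine synthetase in leaf. Without root control replicate 1 the interaction of GS2 was called (0.60, limma adjusted p = 0.0395). When a group is left with 1 library, that library is assumed to vary like the other groups.

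Replicate numbers give no known pairing. Deviations of same-numbered libraries had correlations of -0.02 to 0.21 between groups. With a replicate block the calls among the 10 genes were 4 in leaf, 6 in root and 4 for the interaction, and over all genes 7778, 10012 and 7484. Depth limits the nitrate reductases in root most.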
